A study of Solanum lycopersicum with 12 samples.

Results

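The comparison described here is ripening within yellow tomato No. 19 (Solanum lycopersicum), with fruits taken at maturity, 55 days after anthesis, set against fruits taken at color break, 40 days after anthesis. Each stage has 3 RNA-seq libraries, so 6 of the 12 libraries of the series are described. The other 6 are fruits of red tomato No. 20 at the same 2 stages, which are used where the change in the yellow fruit is tested against the change in the red fruit. No transgene, mutation or treatment is named in the labels, and both stages of the yellow fruit share its genotype. The labels name the tissue as fruit and state neither that seeds were taken out nor that the 3 replicates are separate plants. The p-values therefore rest on the spread among libraries, some or all of which could be technical. Genes were included if they reached 1 FPKM (the authors' unit, fragments per kilobase of transcript scaled to the mapped fragments of a library) in at least 3 of the 12 libraries, which kept 15974 of 24215 genes.

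Color break is the stage at which a green tomato fruit begins to lose chlorophyll and to make carotenoids. From there to maturity, a set of transcription factors and the hormone ethylene drive carotenoid synthesis, wall softening and the formation of sugars, acids and aroma compounds, while photosynthesis is taken down. The seeds inside follow their own program, in which they fill with storage proteins and oil, and the skin keeps laying down wax and cutin.

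The yellow libraries held between 50963462 and 60854667 counts, and the 10 most abundant genes took 9.94 to 10.7% of them. Replicates of a yellow group lay close together: counts of pairs differed by 5.37 to 8.67 times the variance of sampling noise alone, so no pair was a repeat deposit of the same library. In the red fruit, maturity replicate 1 stood apart from replicates 2 and 3, at 34.9 and 33.1 times sampling noise against 12.4 between those 2 libraries, and the effect on the comparison of the fruits is given with it.

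Between the stages, genes that moved by a factor of 2 or more mostly fell. A gene was called when edgeR's quasi-likelihood test gave a Benjamini-Hochberg adjusted p under 0.05 over all 15974 genes and the log2 fold change, maturity over color break, was at least 1 in size. By this rule 1015 genes (6.35% of those tested) were called, 235 higher at maturity (1.47%) and 780 lower (4.88%). A further 5306 genes passed the adjusted p with a smaller change, so 6321 genes (39.6%) passed it in all. For 8782 genes (55.0%) the 3 maturity libraries did not overlap in FPKM with the 3 color break libraries, and this held for 231 of the 235 and 775 of the 780 called genes. The median log2 fold change over all tested genes was -0.002. Large falls were more frequent than large rises: 303 genes fell and 66 rose by at least 2 on the log2 scale, and 84 fell and 27 rose by at least 3. Of the called genes, 29 higher and 121 lower ones had passed the FPKM minimum only through red libraries. With the minimum set in the 6 yellow libraries alone, 203 genes were called higher and 664 lower.

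**Figure D1:**
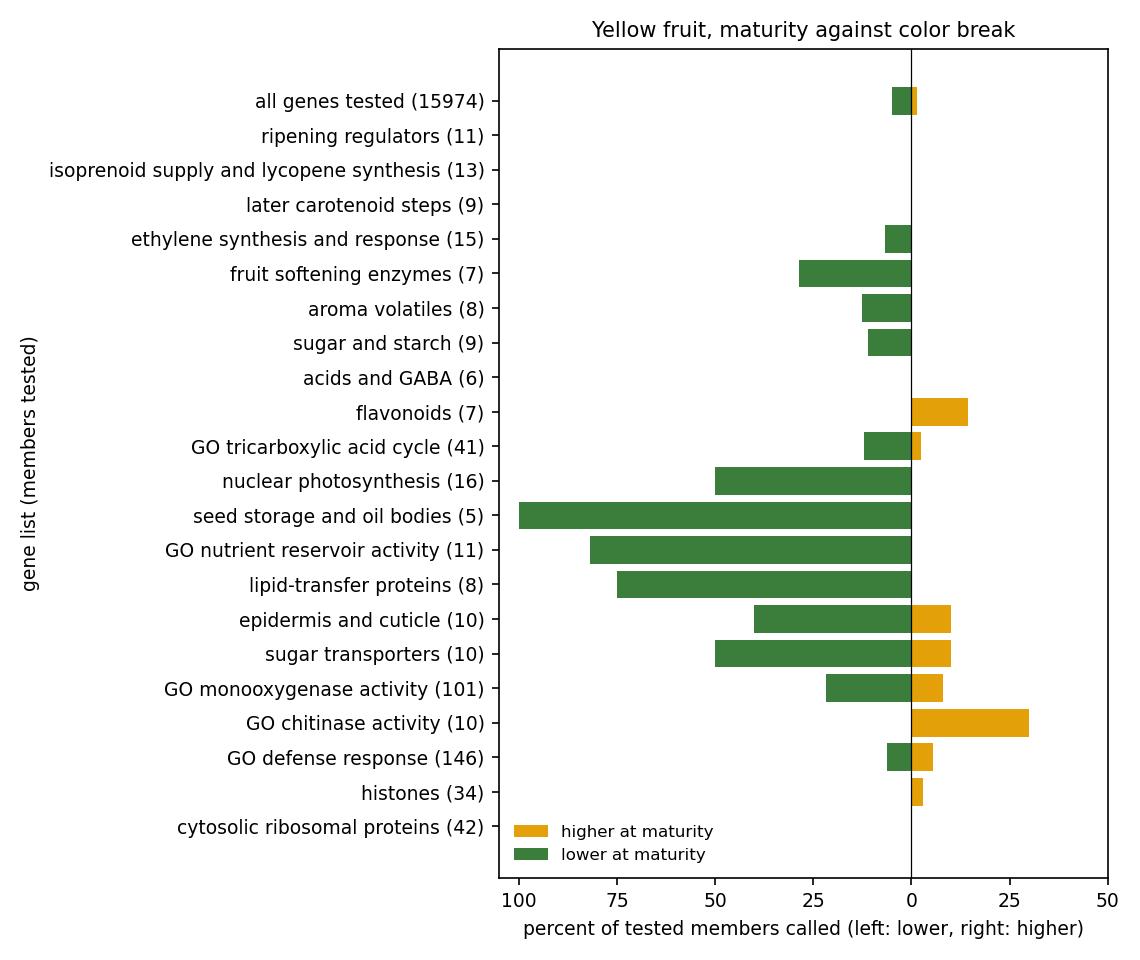
Share of the tested members of each gene list called lower (bars to the left) or higher (bars to the right) at maturity against color break in yellow fruit, in percent, with the number of members tested in brackets and all 15974 genes in the top row. Lists of ripening regulators and of lycopene synthesis have no bar, while 100% of the seed storage and oil body list and 81.8% of the nutrient reservoir list lie on the lower side.

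Regulators of ripening moved little. Of 11 tested, none was called by edgeR, DESeq2 or limma; 8 passed both the unadjusted and the adjusted p of 0.05, and none had a log2 fold change over 0.38 in size. RIN, a MADS-box factor of tomato ripening, had 239.6, 235 and 243 FPKM at maturity, against 237, 242 and 233 FPKM at color break, and the groups overlapped (log2 fold change -0.01 ± 0.037 (SE), adjusted p = 0.878). NOR, a NAC factor of ripening, was lower in every maturity library, at 308, 305 and 294 FPKM at maturity, against 366, 354 and 355 FPKM at color break (log2 fold change -0.27 ± 0.037 (SE), adjusted p = 5.15e-05). CNR, the SBP-box factor of the Colorless non-ripening locus, was higher in every maturity library, at 310.3, 308 and 306 FPKM at maturity, against 230.4, 236 and 240.4 FPKM at color break (log2 fold change 0.36 ± 0.032 (SE), adjusted p = 9.46e-07). The changes of NOR and CNR were larger than the spread between replicates but far below the fold required, and they had opposite directions. The DNA demethylase DML2, which removes methylation from ripening genes, averaged 198 ± 6.64 FPKM at maturity and 244 ± 8.84 FPKM at color break (SD, n = 3 each; log2 fold change -0.32 ± 0.051 (SE), adjusted p = 0.000203).

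Carotenoid genes also stayed below the fold required. Of 13 genes of plastid isoprenoid supply and lycopene synthesis, none was called by edgeR, DESeq2 or limma, 11 had an unadjusted p under 0.05, and the median log2 fold change was 0.14, against -0.002 over all genes; for 9 later carotenoid steps, none was called by any of these tools, 7 had an unadjusted p under 0.05, and the median was 0.21. PSY1, the phytoene synthase that supplies fruit carotenoids, had 1600.0, 1617 and 1616 FPKM at maturity, against 1398, 1374 and 1424 FPKM at color break (log2 fold change 0.18 ± 0.022 (SE), adjusted p = 1.61e-05). CRTISO, which turns prolycopene into lycopene, had 76.1, 76.3 and 72.4 FPKM at maturity, against 55.7, 53.9 and 55.1 FPKM at color break (log2 fold change 0.43 ± 0.042 (SE), adjusted p = 2.29e-06). Both were higher in all 3 maturity libraries than in any color break library, with steps of less than a factor of 2. GGPPS2, which makes the precursor of phytoene, had the list's largest step, with 51.1 ± 1.38 FPKM at maturity and 35.1 ± 0.992 FPKM at color break (SD, n = 3 each; log2 fold change 0.52 ± 0.056 (SE), adjusted p = 5.87e-06). CYCB, the fruit lycopene cyclase that leads to beta-carotene, had 27.2, 26.9 and 27.8 FPKM at maturity, against 22.3, 23.7 and 23.2 FPKM at color break (log2 fold change 0.22 ± 0.058 (SE), adjusted p = 0.00741). NCED1, which cleaves epoxycarotenoids on the way to abscisic acid, had 11.5, 11.3 and 10.9 FPKM at maturity, against 11.5, 11 and 11.6 FPKM at color break, and the groups overlapped (log2 fold change -0.04 ± 0.056 (SE), adjusted p = 0.633). Its change differed from that in red fruit, where its log2 fold change was -1.495 (difference, yellow minus red, 1.46, adjusted p = 4.61e-09).

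**Figure D2:**
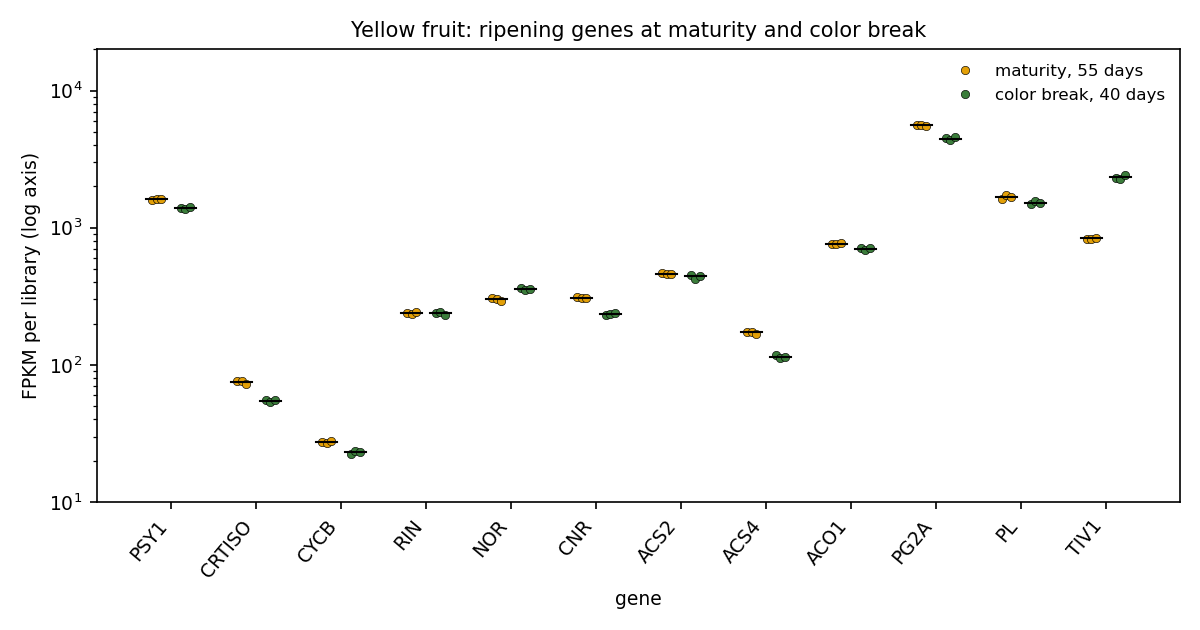
FPKM of 12 ripening genes on a log axis in each yellow fruit library, with maturity (55 days) left of color break (40 days) for every gene; points are libraries and bars are means of 3. All pairs lie within a factor of 2 except TIV1, which averaged 838 FPKM at maturity and 2329 FPKM at color break.

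Ethylene genes followed the same pattern, with 1 of 15 called (6.67%), lower, and a list median of 0.02. ACS2 and ACS4 make the ethylene precursor ACC in ripening fruit. ACS2 had 464, 461 and 459 FPKM at maturity, against 455, 426 and 444 FPKM at color break, all maturity libraries being higher by a margin that did not pass the test (log2 fold change 0.04 ± 0.040 (SE), adjusted p = 0.449). ACS4 had 174, 175 and 169 FPKM at maturity, against 117, 112 and 114 FPKM at color break (log2 fold change 0.57 ± 0.036 (SE), adjusted p = 3.47e-08). ACO1, which turns ACC into ethylene, had 760.1, 755 and 772 FPKM at maturity, against 714, 692 and 706 FPKM at color break (log2 fold change 0.09 ± 0.030 (SE), adjusted p = 0.0245). The called member was ACO6, another ACC oxidase, at 5.98, 6.12 and 5.66 FPKM at maturity, against 24, 23.8 and 23.6 FPKM at color break (log2 fold change -2.03 ± 0.11 (SE), adjusted p = 8.52e-09). This was a 4.08-fold fall with no overlap between the groups. ACO1 differed between the fruits: its log2 fold change in red fruit was -1.79, and the difference, yellow minus red, was 1.88 (adjusted p = 2.03e-12). The ethylene-responsive genes E8 and E4 averaged 4901 ± 12.4 FPKM at maturity and 5491 ± 37.8 FPKM at color break for E8 and 2426 ± 92.3 FPKM at maturity and 3107 ± 224 FPKM at color break for E4 (SD, n = 3 each), neither called.

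Of 7 softening enzymes 2 were called (28.6%), both lower, and the list's median log2 fold change was -0.46. PG2A, the polygalacturonase that cuts pectin, had 5628, 5650.0 and 5542 FPKM at maturity, against 4508, 4325 and 4551 FPKM at color break (log2 fold change 0.31 ± 0.042 (SE), adjusted p = 4.81e-05), so its already high level was higher still in all 3 maturity libraries. The log2 fold change of PG2A in red fruit was -3.06, and the difference, yellow minus red, was 3.37 (adjusted p = 1.61e-13). PL, the pectate lyase of softening fruit, had 1624, 1739 and 1661 FPKM at maturity, against 1495, 1561 and 1522 FPKM at color break (log2 fold change 0.11 ± 0.040 (SE), adjusted p = 0.0393). TBG4, a beta-galactosidase of the wall, averaged 38.2 ± 0.779 FPKM at maturity and 72.8 ± 2.97 FPKM at color break and fell just short of the fold required (SD, n = 3 each; log2 fold change -0.95 ± 0.038 (SE), adjusted p = 3.86e-10). The called members were expressed at lower levels: MAN4, an endo-beta-mannanase, had 3.56, 4.4 and 3.77 FPKM at maturity, against 22.8, 19.9 and 23.3 FPKM at color break (log2 fold change -2.51 ± 0.14 (SE), adjusted p = 1.15e-08). The endoglucanase CEL1 averaged 2.59 ± 0.278 FPKM at maturity and 7.43 ± 0.547 FPKM at color break (SD, n = 3 each; log2 fold change -1.54 ± 0.11 (SE), adjusted p = 1.26e-07). Among 15 tested pectin-modifying enzymes, 1 was called higher and 3 lower. The riser was the pectin acetylesterase Solyc01g102350, at 10.7, 8.88 and 9.77 FPKM at maturity, against 1.5, 1.61 and 1.86 FPKM at color break (log2 fold change 2.54 ± 0.10 (SE), adjusted p = 5.31e-10). The pectate lyase Solyc09g091430 fell, at 5.59 ± 0.403 FPKM at maturity and 13.7 ± 0.66 FPKM at color break (SD, n = 3 each; log2 fold change -1.31 ± 0.081 (SE), adjusted p = 2.7e-08).

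Sugar and flavor genes held 1 clear exception. TIV1, which carries the table's terms vacuole and beta-fructofuranosidase activity (chromosome 3, 55278885 to 55283499), encodes the acid invertase that splits sucrose into glucose and fructose in the vacuole. It had 831, 834 and 848 FPKM at maturity, against 2293, 2284 and 2409 FPKM at color break, a 2.82-fold fall with no overlap between the groups (log2 fold change -1.497 ± 0.040 (SE), adjusted p = 7.79e-12). In red fruit the log2 fold change of TIV1 was -0.10, and the difference between the fruits, yellow minus red, was -1.40 (adjusted p = 2.61e-10). No other of 9 sugar and starch genes was called; the cell-wall invertase LIN7 averaged 44.9 ± 1.59 FPKM at maturity and 30.1 ± 0.84 FPKM at color break (SD, n = 3 each; log2 fold change 0.55 ± 0.046 (SE), adjusted p = 5.6e-07). The vacuolar invertase inhibitor VIF averaged 22.5 ± 1.81 FPKM at maturity and 17.8 ± 1.37 FPKM at color break (SD, n = 3 each; log2 fold change 0.31 ± 0.11 (SE), adjusted p = 0.0327). None of 6 genes of acids and GABA was called by edgeR, DESeq2 or limma, 4 had an unadjusted p under 0.05, and GAD2, a glutamate decarboxylase that makes GABA, averaged 9.75 ± 0.425 FPKM at maturity and 6.17 ± 0.681 FPKM at color break (SD, n = 3 each; log2 fold change 0.64 ± 0.074 (SE), adjusted p = 1.25e-05).

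Of 8 tested genes on the aroma list, 1 was called (12.5%), the lipoxygenase LOXD, which was lower. Whether LOXD has a part in aroma was not tested. LOXC, the lipoxygenase that feeds C6 volatiles, had 588, 606 and 582 FPKM at maturity, against 841, 839.5 and 846 FPKM at color break (log2 fold change -0.53 ± 0.029 (SE), adjusted p = 7.22e-09). Its fall was called neither here nor as a difference from red fruit, where the log2 fold change was 0.33. LOXB, another lipoxygenase and the gene with the most counts, averaged 7823 ± 138 FPKM at maturity and 9117 ± 272 FPKM at color break (SD, n = 3 each; log2 fold change -0.24 ± 0.049 (SE), adjusted p = 0.0013). In red fruit the log2 fold change of LOXB was 1.04, and the difference, yellow minus red, was -1.28 (adjusted p = 5.43e-09). LOXD was near the floor of expression, at 0.615 ± 0.0225 FPKM at maturity and 1.26 ± 0.235 FPKM at color break (SD, n = 3 each; log2 fold change -1.05 ± 0.13 (SE), adjusted p = 1.56e-05). Its call was lost without color break replicate 3, where the log2 fold change was -0.89.

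The flavonoid list had mostly low levels and 1 of 7 members called (14.3%), higher. CHS1, a chalcone synthase that opens the flavonoid pathway, had 0.995, 1.28 and 1.01 FPKM at maturity, against 0.565, 0.44 and 0.569 FPKM at color break (log2 fold change 1.02 ± 0.18 (SE), adjusted p = 0.000516). It was not called without maturity replicate 2 (0.89) or color break replicate 2 (0.92). MYB12, the factor that switches on flavonol genes, was under 1 FPKM in all 6 libraries, at 0.397, 0.265 and 0.231 FPKM at maturity, against 0.456, 0.364 and 0.548 FPKM at color break, and the groups overlapped (log2 fold change -0.60 ± 0.23 (SE), adjusted p = 0.0526). FLS, flavonol synthase, was the most expressed member of the list, with 26.4 ± 1.06 FPKM at maturity and 36.3 ± 0.478 FPKM at color break (SD, n = 3 each; log2 fold change -0.48 ± 0.045 (SE), adjusted p = 1.7e-06). All 7 members differed in their stage change between the fruits, each with the higher change in yellow: in red fruit 6 of the 7 were called lower, the list's median log2 fold change was -1.91 there and 0.17 in yellow, and the background for such a difference was 1474 of 15974 genes (9.23%).

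Photosynthesis genes of the nucleus fell in part. Of 16 tested, 8 were called lower (50.0%) and none higher, with a median log2 fold change of -0.87. Their summed level was 179 to 184 FPKM at maturity and 272 to 282 FPKM at color break. The photosystem I light-harvesting gene Solyc10g006230 had 1.78, 2.35 and 2.46 FPKM at maturity, against 18.9, 19.7 and 17.6 FPKM at color break (log2 fold change -3.11 ± 0.14 (SE), adjusted p = 1.12e-09). RBCS-2A, a small subunit of the carbon-fixing enzyme Rubisco, had 2.14, 2.21 and 3.34 FPKM at maturity, against 12.6, 12.4 and 11.5 FPKM at color break (log2 fold change -2.27 ± 0.17 (SE), adjusted p = 1.51e-07). In contrast, the abundant chlorophyll-binding gene Solyc04g082930 averaged 37.9 ± 0.321 FPKM at maturity and 42.4 ± 1.26 FPKM at color break (SD, n = 3 each; log2 fold change -0.18 ± 0.059 (SE), adjusted p = 0.0232). PETE, the electron carrier plastocyanin, averaged 58.4 ± 0.428 FPKM at maturity and 78.7 ± 2.8 FPKM at color break (SD, n = 3 each; log2 fold change -0.45 ± 0.083 (SE), adjusted p = 0.000634). Over the 66 tested genes with a photosynthesis term in the table, 15 were called lower (22.7%) and none higher. APRR2, a regulator of plastid development in green fruit, averaged 58.7 ± 2.12 FPKM at maturity and 97.8 ± 0.127 FPKM at color break (SD, n = 3 each; log2 fold change -0.76 ± 0.040 (SE), adjusted p = 5.34e-09). PPH, a chlorophyll-breakdown enzyme, averaged 102 ± 3.01 FPKM at maturity and 66.7 ± 1.42 FPKM at color break (SD, n = 3 each; log2 fold change 0.58 ± 0.054 (SE), adjusted p = 1.51e-06). For 13 of the 16 nuclear photosynthesis genes the difference from the red stage change was called, the change in yellow being the higher; the list's median in red was -3.73.

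Storage and oil body genes of the seed fell together. All 5 tested genes described as oleosin or late embryogenesis abundant (LEA) protein were called lower, and their summed level was 91.4 to 100.2 FPKM at maturity against 514 to 558 FPKM at color break. Oleosins coat the oil bodies of seeds. The oleosin Solyc12g010920 had 36.9, 37.7 and 37 FPKM at maturity, against 188, 201 and 179 FPKM at color break (log2 fold change -2.37 ± 0.35 (SE), adjusted p = 9.99e-05). Another oleosin, Solyc02g086490, had 1.31, 0.645 and 0.757 FPKM at maturity, against 31.8, 29 and 27.1 FPKM at color break (log2 fold change -5.01 ± 0.53 (SE), adjusted p = 5.02e-06). The LEA gene Solyc03g116390, whose protein family protects drying cells, had 19.1, 17.7 and 17.1 FPKM at maturity, against 99.2, 106 and 96.1 FPKM at color break (log2 fold change -2.50 ± 0.23 (SE), adjusted p = 1.22e-06). Of 11 tested genes with the table's term nutrient reservoir activity, which storage proteins carry, 9 were called lower (81.8%), none rose, and the median was -3.43. The most abundant of them, Solyc08g080490 (chromosome 8, 63894966 to 63896216), had 28.2, 32.3 and 37.8 FPKM at maturity, against 833, 845 and 726 FPKM at color break (log2 fold change -4.64 ± 0.81 (SE), adjusted p = 0.00043). Solyc09g025210 of the same group had 0.939, 1.29 and 1.14 FPKM at maturity, against 40.6, 41.9 and 43.5 FPKM at color break (log2 fold change -5.24 ± 0.26 (SE), adjusted p = 2.91e-09). LE25, a tomato LEA-type protein induced by drought and abscisic acid, had 257, 239 and 253 FPKM at maturity, against 717, 673 and 611 FPKM at color break (log2 fold change -1.44 ± 0.24 (SE), adjusted p = 0.000343). Solyc06g034040, a further oleosin, averaged 24.3 ± 2.7 FPKM at maturity and 142 ± 12.4 FPKM at color break (SD, n = 3 each; log2 fold change -2.57 ± 0.37 (SE), adjusted p = 8.67e-05). Solyc09g082330, an abundant gene with no annotation in the table, averaged 118 ± 5.22 FPKM at maturity and 778 ± 10.5 FPKM at color break (SD, n = 3 each; log2 fold change -2.74 ± 0.38 (SE), adjusted p = 6.56e-05). In all these genes every maturity library lay below every color break library. Such separation held for 775 of the 780 genes called lower and was a condition for naming the largest falls, so it does not set these genes apart. The gene described as Em-like protein GEA6, Solyc06g048840, had 110.2, 112 and 120.5 FPKM at maturity, against 433, 436 and 380.4 FPKM at color break, with groups as clearly apart, but was not called (log2 fold change -1.89 ± 0.78 (SE), adjusted p = 0.0719): the shared estimate of spread takes in red maturity, where its 3 libraries had 1639, 6 and 5 counts. Without red maturity replicate 1 it was called, with the same log2 fold change. In bulk fruit, fewer seed cells, less of these RNAs per seed cell and a fall in fruit cells outside the seed cannot be told apart.

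Lipid-transfer proteins, small secreted carriers found in skins and in seeds, fell by the same order. Of 8 tested, 6 were called lower, none higher, with a median of -2.75, and the summed level was 114 to 117 FPKM at maturity against 1143 to 1335 FPKM at color break. A pair of neighbours on chromosome 1 made up most of it. Solyc01g090360 had 45.2, 37.4 and 38.5 FPKM at maturity, against 631, 650.3 and 569 FPKM at color break (log2 fold change -3.95 ± 0.46 (SE), adjusted p = 1.17e-05). Solyc01g090350 (chromosome 1, 83930827 to 83931556) had 52.6, 55 and 55.6 FPKM at maturity, against 469, 495 and 413 FPKM at color break (log2 fold change -3.10 ± 0.59 (SE), adjusted p = 0.000908). LE16, known in tomato as a drought-induced member, had 3.35, 2.94 and 4.55 FPKM at maturity, against 125, 129 and 110.2 FPKM at color break, a 34.2-fold fall (log2 fold change -5.10 ± 0.17 (SE), adjusted p = 6.95e-11). It lies on chromosome 10 between 58857957 and 58859120 in a run of 4 neighbouring tested genes that all fell, the others being Solyc10g075060 (-3.34), Solyc10g075070 (-2.41) and Solyc10g075100 (-4.53). Near-identical copies can share reads, so the split between neighbours is uncertain. LE16 fell in red fruit as well (log2 fold change -4.93; difference -0.17 ± 0.251, SE, adjusted p = 0.617).

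**Figure D3:**
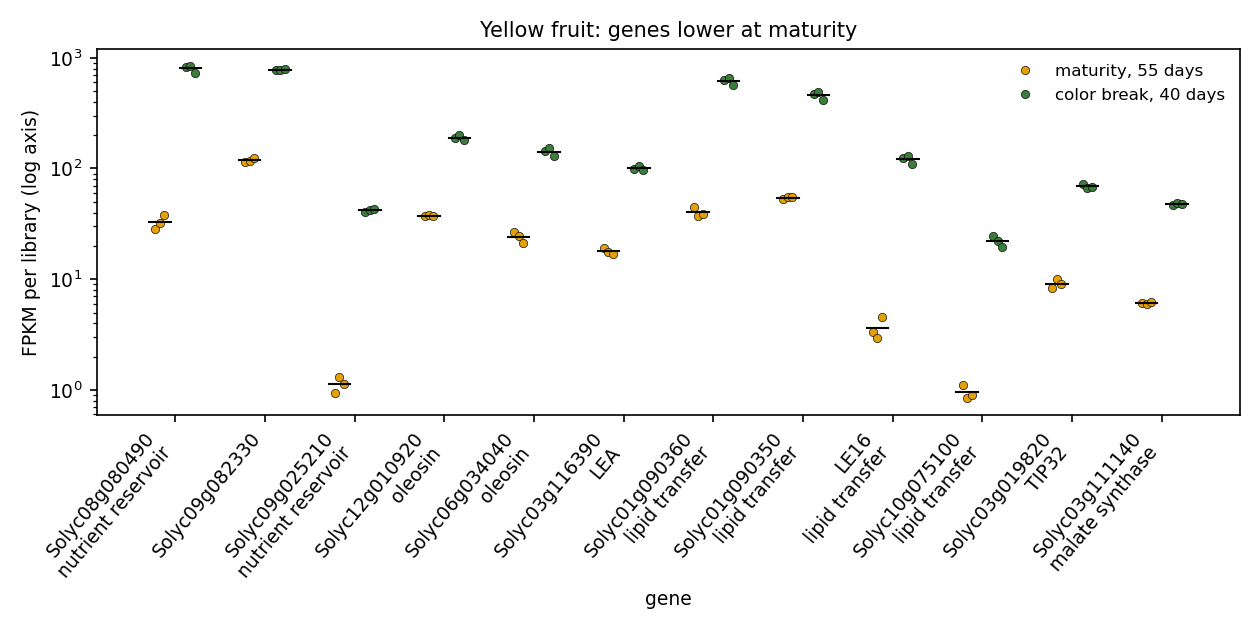
FPKM of 12 genes called lower at maturity, on a log axis, in each yellow fruit library, with maturity left of color break; points are libraries and bars are means of 3. In every gene the 3 maturity libraries lie below the 3 color break libraries, by a factor of 5.17 for the oleosin Solyc12g010920 and 34.2 for LE16.

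Some water channels and some enzymes of fat and acid metabolism fell, while the medians of their lists were slightly above 0. Of 21 tested genes with a channel activity term, 4 were called lower (19.0%) and 2 higher (9.52%), 16 had a positive log2 fold change and the median was 0.21. The tonoplast water channel Solyc03g019820, described as TIP32, had 8.35, 9.94 and 9.01 FPKM at maturity, against 71.9, 67.1 and 68.7 FPKM at color break (log2 fold change -2.95 ± 0.27 (SE), adjusted p = 1.28e-06). Solyc06g060760, described as TIP23, had 0.591, 0.624 and 0.696 FPKM at maturity, against 9.26, 9.94 and 10.1 FPKM at color break (log2 fold change -3.94 ± 0.22 (SE), adjusted p = 9.76e-09). A separate aquaporin list, with 3 tested members, leaves out TIP32 and TIP23, although these are water channels too. On that list none fell and 1 was called higher, Solyc08g066840 (TIP4-1). It was barely detected, at 0.451, 0.374 and 0.418 FPKM at maturity, against 0.0529, 0 and 0 FPKM at color break (adjusted p = 0.00196). Its fitted fold depends on color break replicate 1 and is not given. The summed level of that list, without TIP32 and TIP23, was 45.5 to 49.4 FPKM at maturity and 40.6 to 46.3 FPKM at color break. The ranges overlapped. Malate synthase, an enzyme of the glyoxylate cycle that germinating oilseeds use to turn fat into sugar, fell at 2 neighbouring genes on chromosome 3: Solyc03g111140 had 6.04, 6.02 and 6.25 FPKM at maturity, against 47, 48.5 and 47.8 FPKM at color break (log2 fold change -2.99 ± 0.24 (SE), adjusted p = 4.57e-07). The weaker Solyc03g111130 averaged 0.605 ± 0.2 FPKM at maturity and 2.62 ± 0.383 FPKM at color break (SD, n = 3 each; log2 fold change -2.11 ± 0.33 (SE), adjusted p = 0.000148). Among 41 tested genes with a tricarboxylic acid cycle term, 5 were called lower (12.2%), among them malate synthase, and 1 higher; 24 of the 41 had a positive log2 fold change and the median was 0.07. The citrate synthase Solyc07g055840 had 6.32, 5.79 and 6.75 FPKM at maturity, against 20.3, 19.2 and 21.5 FPKM at color break (log2 fold change -1.71 ± 0.071 (SE), adjusted p = 5.7e-10). The succinate dehydrogenase subunit Solyc04g055030 had 1.07, 0.995 and 1.28 FPKM at maturity, against 7.03, 8.55 and 7.76 FPKM at color break (log2 fold change -2.82 ± 0.21 (SE), adjusted p = 1.93e-07). The seed list's level moved with these falls, and its part in them was not tested.

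Skin genes gave a mixed picture. Of 10 tested genes on the list of epidermis and cuticle, 4 were called lower (40.0%) and 1 higher, and the summed level was 49.0 to 49.6 FPKM at maturity against 83.3 to 84.6 FPKM at color break. Most are 3-ketoacyl-CoA synthases, which lengthen the fatty acids of wax. Solyc03g005320 had 0.0903, 0 and 0.0605 FPKM at maturity, against 1.28, 1.14 and 1.39 FPKM at color break (log2 fold change -4.53 ± 0.49 (SE), adjusted p = 1.8e-05; -5.30 without maturity replicate 1 and -3.94 without maturity replicate 2). The more moderate Solyc08g067260 had 9.42, 9.2 and 8.45 FPKM at maturity, against 20.8, 21.9 and 21.4 FPKM at color break (log2 fold change -1.26 ± 0.059 (SE), adjusted p = 1.93e-09). CER6, a 3-ketoacyl-CoA synthase of tomato skin wax, averaged 4.27 ± 0.547 FPKM at maturity and 7.93 ± 0.607 FPKM at color break and missed the fold required (SD, n = 3 each; log2 fold change -0.92 ± 0.12 (SE), adjusted p = 3.73e-05). A family member on chromosome 9, Solyc09g065780, rose, with 3.01, 2.96 and 3.3 FPKM at maturity, against 0.465, 0.465 and 0.596 FPKM at color break (log2 fold change 2.56 ± 0.22 (SE), adjusted p = 7.92e-07).

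Sugar transporters and oxidation enzymes were mixed. Of 10 sugar transporters tested, 5 were called lower (50.0%) and 1 higher, with a median of -0.83. Their summed level was nonetheless higher, at 133 to 138 FPKM at maturity and 111 to 112 FPKM at color break. Among the fallers, the vacuolar carrier Solyc03g032040 (tonoplast monosaccharide transporter 1) had 0.883, 1.08 and 0.891 FPKM at maturity, against 3.28, 3.62 and 3.43 FPKM at color break (log2 fold change -1.87 ± 0.12 (SE), adjusted p = 3.95e-08). The riser was the SWEET-type sugar exporter Solyc04g064630, with 6.4, 6.74 and 5.74 FPKM at maturity, against 2.82, 2.32 and 2.6 FPKM at color break (log2 fold change 1.26 ± 0.14 (SE), adjusted p = 8.35e-06). The 101 tested genes with a monooxygenase term, which cytochrome P450 enzymes carry, held 22 called lower (21.8%) and 8 higher (7.92%). Solyc07g043420, described as a steroid 16alpha-hydroxylase, had 1.98, 1.97 and 2.22 FPKM at maturity, against 12.5, 12.9 and 12.9 FPKM at color break (log2 fold change -2.65 ± 0.19 (SE), adjusted p = 1.01e-07). Solyc01g094750, a P450 of the CYP86A family that oxidises fatty acids for cutin, averaged 0.171 ± 0.0791 FPKM at maturity and 1.54 ± 0.21 FPKM at color break (SD, n = 3 each; log2 fold change -3.10 ± 0.37 (SE), adjusted p = 1.43e-05). The terpene synthase Solyc06g060180 averaged 0.137 ± 0.0586 FPKM at maturity and 2.13 ± 0.299 FPKM at color break (SD, n = 3 each; log2 fold change -3.94 ± 0.43 (SE), adjusted p = 6.63e-06). On the separate list of 6 genes described as cytochrome P450, 1 was called in each direction, and the summed level was 18.4 to 22.0 FPKM at maturity and 20.1 to 21.1 FPKM at color break. Of 42 tested genes with a peroxidase term, 3 were called higher (7.14%) and 3 lower (7.14%), with a median of 0.09. The 10 described as peroxidase had a summed level of 304 to 314 FPKM at maturity and 268 to 279 FPKM at color break. Transcription factors as a class, by contrast, were near the background: of 421 tested, 22 fell (5.23%) and 10 rose (2.38%).

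Some defense-type genes were among the abundant risers, while others fell. Of 146 tested genes with the term defense response, 8 were called higher (5.48%) and 9 lower (6.16%), with a median of 0.07. Solyc08g080650, annotated with defense against fungi, had 1449, 1511 and 1502 FPKM at maturity, against 144, 163 and 157 FPKM at color break, a 9.48-fold rise (log2 fold change 3.25 ± 0.042 (SE), adjusted p = 6.91e-15). The gene next to it on chromosome 8, Solyc08g080630, annotated as a serine peptidase inhibitor responsive to wounding, had 296, 276 and 287 FPKM at maturity, against 36.9, 33.3 and 31.2 FPKM at color break (log2 fold change 3.06 ± 0.12 (SE), adjusted p = 3.33e-10). The 2 genes lie at 64002840 to 64005894 and at 64000788 to 64002067. Both had a higher stage change in yellow than in red fruit, where the log2 fold changes were 0.71 for Solyc08g080650 and -0.28 for Solyc08g080630 (differences 2.54 and 3.34, adjusted p = 1.44e-12 and 1.5e-09). Solyc01g102880, with the terms defense response and ADP binding, rose as well, at 3.45 ± 0.133 FPKM at maturity and 0.279 ± 0.0367 FPKM at color break (SD, n = 3 each; log2 fold change 3.59 ± 0.084 (SE), adjusted p = 2.48e-12). Other defense-type genes fell: the pathogenesis-related gene Solyc01g097240 (PR-P2) had 0.658, 1.17 and 2.34 FPKM at maturity, against 10.6, 10.2 and 11.2 FPKM at color break (log2 fold change -2.97 ± 0.30 (SE), adjusted p = 2.95e-06). Solyc04g007770, with a defense term only, had 253, 250.4 and 264 FPKM at maturity, against 1721, 1675 and 1546 FPKM at color break (log2 fold change -2.71 ± 0.23 (SE), adjusted p = 6.54e-07).

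Several genes for proteins that cut or bind chitin, the wall polymer of fungi, rose, and 1 fell. Of 10 tested genes with a chitinase term, 3 were called higher (30.0%) and none lower. On the list of 5 genes described as chitinase or beta-1,3-glucanase, 2 were called higher and 1 lower, and the summed level was lower, at 55.6 to 58.1 FPKM at maturity and 66.0 to 68.8 FPKM at color break. The faller was Solyc03g007825, described as an acidic endochitinase, with 1.6, 0.876 and 0.66 FPKM at maturity, against 1.9, 2.44 and 2.58 FPKM at color break (log2 fold change -1.15 ± 0.29 (SE), adjusted p = 0.00673). Its call was lost without maturity replicate 3, where the log2 fold change was -0.91. Solyc10g055800 had 9.78, 10.9 and 10.2 FPKM at maturity, against 0.546, 0.622 and 0.461 FPKM at color break (log2 fold change 4.21 ± 0.11 (SE), adjusted p = 5.76e-12). Its neighbour CHI9, a basic endochitinase, had 6.19, 5.58 and 5.44 FPKM at maturity, against 0.94, 1.41 and 1.44 FPKM at color break (log2 fold change 2.16 ± 0.17 (SE), adjusted p = 2.78e-07). The remaining gene, Solyc07g005100, averaged 4.23 ± 0.868 FPKM at maturity and 1.47 ± 0.444 FPKM at color break (SD, n = 3 each; log2 fold change 1.497 ± 0.20 (SE), adjusted p = 3.99e-05). CHI9 rose in red fruit as well (log2 fold change 1.98; difference 0.18 ± 0.221, SE, adjusted p = 0.539). For Solyc10g055800 the difference, yellow minus red, was 3.99 (adjusted p = 6.59e-11). Solyc10g017970, a short gene with a chitin binding term, had 754, 706 and 699 FPKM at maturity, against 128, 114 and 108 FPKM at color break (log2 fold change 2.60 ± 0.17 (SE), adjusted p = 4.64e-08). In red fruit its log2 fold change was -2.30, and the difference, yellow minus red, was 4.90 (adjusted p = 1.54e-09). The beta-1,3-glucanase Solyc01g059965, which cuts callose and fungal wall glucan, had 5.97, 6.25 and 5.52 FPKM at maturity, against 0.0407, 0.113 and 0.205 FPKM at color break (log2 fold change 5.52 ± 0.26 (SE), adjusted p = 2.24e-09; 6.19 without color break replicate 3). Solyc01g060020, with a glycosyl hydrolase term, is outside the rule for named genes and was chosen after its values were seen. It had 6.48, 6.93 and 5.88 FPKM at maturity, against 0, 0.0949 and 0.158 FPKM at color break (log2 fold change 6.12 ± 0.35 (SE), adjusted p = 1.3e-08). Copies in these families may share reads.

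A run of 3 neighbouring genes on chromosome 1 rose together. Solyc01g112080, a LysM-domain protein of the kind that binds chitin in rice (98103732 to 98105483), had 12.5, 12.9 and 12.8 FPKM at maturity, against 1.38, 1.22 and 1.4 FPKM at color break (log2 fold change 3.22 ± 0.12 (SE), adjusted p = 2.87e-10). Next to it Solyc01g112090, described as a DETOXIFICATION efflux carrier, had 11.2, 10.3 and 10.5 FPKM at maturity, against 4.51, 3.78 and 4.22 FPKM at color break (log2 fold change 1.33 ± 0.091 (SE), adjusted p = 8.12e-08). The last of the run, the flavin-containing monooxygenase Solyc01g112100, had 35.8, 35.7 and 34.8 FPKM at maturity, against 6.07, 7.84 and 6.86 FPKM at color break (log2 fold change 2.33 ± 0.12 (SE), adjusted p = 3.38e-09); at 98114882 to 98117373 it overlaps Solyc01g112090, which ends at 98117419, and no source used here states if counting took strand into account. The next tested genes on that side, Solyc01g112120 and Solyc01g112130, went the other way, with 24.5 ± 0.184 FPKM at maturity and 52.1 ± 2.28 FPKM at color break for Solyc01g112120 and 14.4 ± 0.532 FPKM at maturity and 40.2 ± 1.27 FPKM at color break for Solyc01g112130 (log2 fold changes -1.11 and -1.51). In red fruit all 3 genes of the run fell, with log2 fold changes of -1.45, -1.62 and -1.43, and the differences, yellow minus red, were 4.67, 2.95 and 3.77 (adjusted p = 1.8e-10, 8.85e-10 and 8.4e-10).

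**Figure D4:**
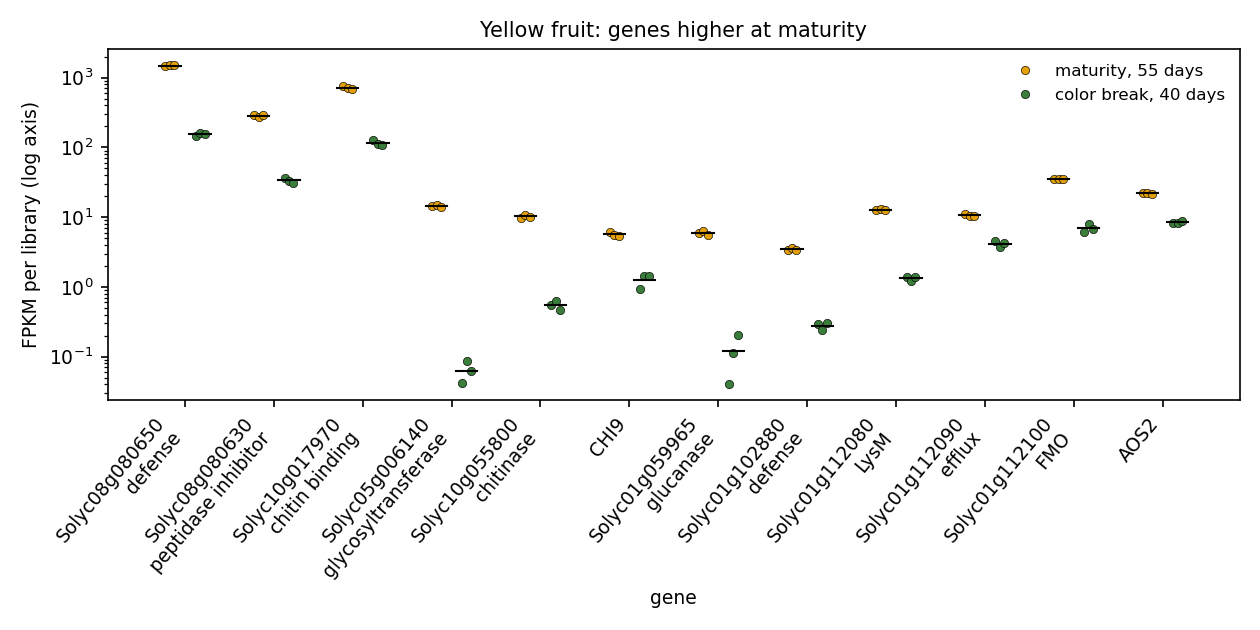
FPKM of 12 genes called higher at maturity, on a log axis, in each yellow fruit library, with maturity left of color break; points are libraries and bars are means of 3. The 3 maturity libraries lie above the 3 color break libraries in every gene, starting at 2.52-fold for the efflux carrier Solyc01g112090, and the glycosyltransferase Solyc05g006140 is under 0.1 FPKM at color break.

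Other risers include genes of secondary metabolism, stress response and protein folding, while some chaperone genes fell. Solyc05g006140, annotated as a UDP-glycosyltransferase acting on quercetin, had 14.5, 14.9 and 14 FPKM at maturity, against 0.0421, 0.0855 and 0.0612 FPKM at color break (log2 fold change 7.69 ± 0.43 (SE), adjusted p = 9.76e-09), a fitted value that rests on 9 counts over the 3 color break libraries, and rose in red fruit too (log2 fold change 6.18). AOS2, allene oxide synthase of the jasmonate pathway, had 22.6, 22.6 and 21.5 FPKM at maturity, against 8.36, 8.33 and 8.83 FPKM at color break (log2 fold change 1.36 ± 0.056 (SE), adjusted p = 5.31e-10). Red fruit showed the opposite, with a log2 fold change of -3.46 and a difference, yellow minus red, of 4.83 (adjusted p = 9.55e-14). Proline dehydrogenase, Solyc02g089620, which breaks down proline, had 41.2, 40.0 and 39.9 FPKM at maturity, against 13.6, 13.2 and 14 FPKM at color break (log2 fold change 1.55 ± 0.061 (SE), adjusted p = 4.09e-10). WRKY75, a defense and senescence factor in Arabidopsis, averaged 1.85 ± 0.713 FPKM at maturity and 0.42 ± 0.153 FPKM at color break (SD, n = 3 each; log2 fold change 2.07 ± 0.34 (SE), adjusted p = 0.000255). The small heat shock protein Le-HSP17.6 (Solyc08g062450) had 304, 279 and 309.8 FPKM at maturity, against 133, 138 and 134 FPKM at color break (log2 fold change 1.12 ± 0.049 (SE), adjusted p = 9.07e-10). Solyc11g020040, annotated with response to unfolded protein, had 181, 179 and 179 FPKM at maturity, against 59.5, 59.4 and 60.8 FPKM at color break (log2 fold change 1.56 ± 0.035 (SE), adjusted p = 1.92e-12). Of 91 tested genes with the chaperone term unfolded protein binding, 4 were called higher (4.40%) and 2 lower. Over all tested genes, 1.47% were called higher and 4.88% lower. Solyc04g072250, which carries the chaperone term, fell, averaging 25.6 FPKM at maturity and 137 FPKM at color break (log2 fold change -2.44). On the separate list of heat shock and chaperone genes, 24 were tested, with 1 called higher (4.17%) and 2 lower (8.33%). The median log2 fold change of that list was 0.14. Its summed level was lower, at 3613 to 3697 FPKM at maturity and 3849 to 3983 FPKM at color break. The expansin-like wall protein Solyc08g077900 had 19.6, 14.9 and 16.7 FPKM at maturity, against 5.22, 4.87 and 4.96 FPKM at color break (log2 fold change 1.74 ± 0.11 (SE), adjusted p = 3.47e-08).

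Chromatin and ribosome genes were mostly slightly higher, below the fold required. The 34 tested histones held 1 called higher, Solyc01g099410 (H2A), at 132 ± 5.38 FPKM at maturity and 62.3 ± 1.55 FPKM at color break (SD, n = 3 each; log2 fold change 1.06 ± 0.098 (SE), adjusted p = 1.45e-06); 29 of the 34 had a positive log2 fold change, against 7923 of 15974 genes. Their summed level was 2371 to 2476 FPKM at maturity and 1730 to 1895 FPKM at color break. HIS1-3 (Solyc02g084240), a linker histone induced by drought in Arabidopsis, had 541, 520.4 and 519 FPKM at maturity, against 246, 239 and 236 FPKM at color break (log2 fold change 1.11 ± 0.045 (SE), adjusted p = 4.61e-10). Of 42 cytosolic ribosomal protein genes none was called by edgeR, DESeq2 or limma, 37 had a positive value, and 24 passed an unadjusted and 23 an adjusted p of 0.05.

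Most genes that fell in yellow fruit also fell in red, and more genes were called in red. In red fruit 2471 genes were called (15.5%), 628 higher (3.93%) and 1843 lower (11.5%). The adjusted p alone was passed by 64.3%. Of the 780 genes lower in yellow, 650 were also called lower in red, which is 83.3% of the yellow list and 35.3% of the red list, and 34 were called higher in red. Of the 235 genes higher in yellow, 103 were also called higher in red (43.8% of the yellow list and 16.4% of the red list). A further 36 were called lower there. The difference of the stage changes was called for 1954 genes (12.2%; 46.7% passed its adjusted p alone), 1474 with the higher change in yellow (9.23%) and 480 with the lower (3.00%). It was called for 2085 genes without red maturity replicate 1. Among the 780 falls it was called for 509, with the yellow change the higher, that is the shallower or opposite, in 419 and the lower in 90; without that red library the counts were 446 and 90. Among the 235 rises it was called for 114, with the yellow change the higher in 94 and the lower in 20 (98 and 18 without that library). For the seed genes the size of the difference, and for some the call, depends on that library. The oleosin Solyc02g086490 was not called at 1.09 with all libraries and was called at 8.69 without it, and the nutrient reservoir gene Solyc08g080490 was not called at 2.69 and was called at 14.14 without it. The oleosin Solyc06g034040 had a difference of 4.71 with all libraries and 13.30 without that library, and Solyc12g010920 had 4.91 and 7.28 without it. The fitted sizes without that library depend on the prior count where red maturity has no or few counts left, and are no bounds.

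Of the 90 genes lower in yellow with the difference called toward yellow's lower change, 3 are given here. The polygalacturonase-type gene Solyc05g005170 had 9.58, 8.22 and 8.56 FPKM at maturity, against 22.9, 21.7 and 22.4 FPKM at color break (log2 fold change -1.37 ± 0.13 (SE), adjusted p = 1.9e-06), whereas its log2 fold change in red fruit was 3.36 (difference -4.73, adjusted p = 1.76e-09). The kinesin-type motor gene Solyc09g075480 had 0.417, 0.327 and 0.362 FPKM at maturity, against 3.45, 3.91 and 3.47 FPKM at color break (log2 fold change -3.30 ± 0.11 (SE), adjusted p = 1.12e-10). Its log2 fold change in red fruit was 1.21 (difference -4.50, adjusted p = 4.85e-11). The xyloglucan endotransglucosylase Solyc03g093130, which loosens and rejoins wall glucan, averaged 0.453 ± 0.139 FPKM at maturity and 1.83 ± 0.241 FPKM at color break (SD, n = 3 each; log2 fold change -2.02 ± 0.23 (SE), adjusted p = 1.05e-05). Its difference from red was -2.02 (adjusted p = 0.000229).

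**Figure D5:**
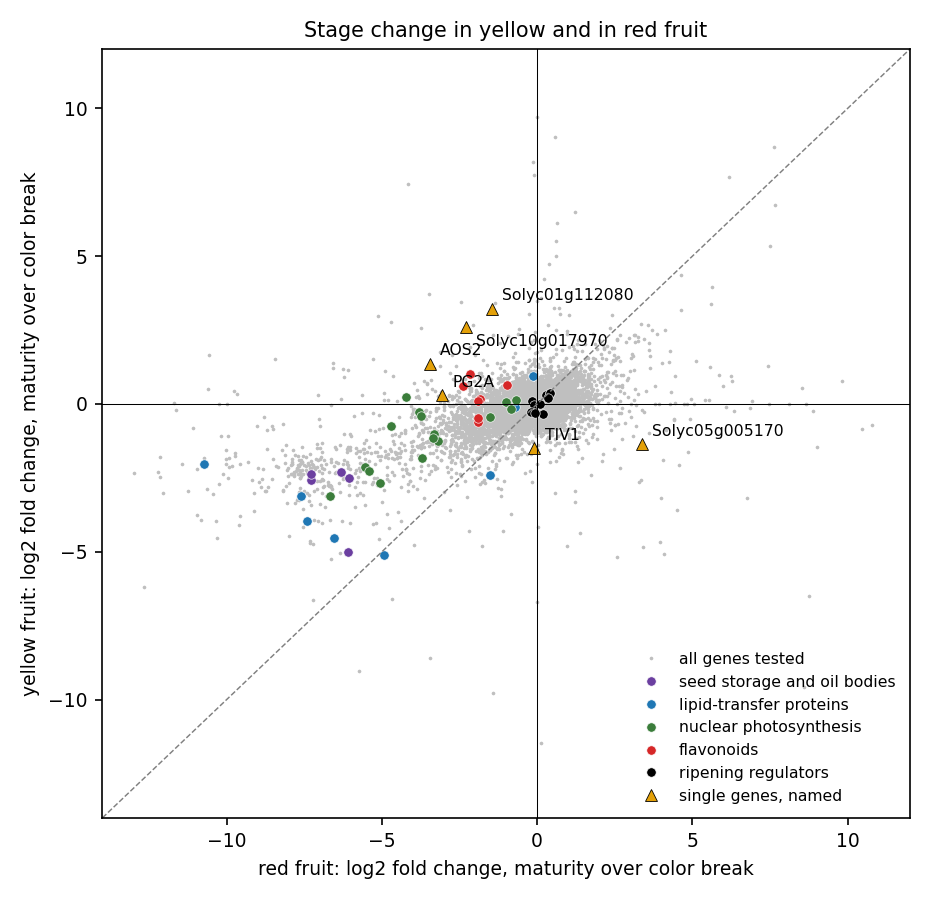
Log2 fold change from color break to maturity in yellow fruit (vertical axis) against that in red fruit (horizontal axis) for all 15974 tested genes (grey), with 5 gene lists and 6 single genes marked; the dashed line marks equal change. The 5 seed storage genes lie left of the line, 4 of them with the difference called (not Solyc02g086490, at 1.09 ± 0.886, SE, adjusted p = 0.337), while TIV1 and Solyc05g005170 lie below it.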

How the data were processed

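Fruit RNA of 2 tomato lines at 2 stages was sequenced in 12 libraries, 3 per group, from oligo(dT)-selected, dUTP strand-marked, paired-end preparations, per the labels' protocols. The deposited table holds, per gene, the authors' raw count and the authors' FPKM, which is scaled by gene length and library. The submitters' processing notes name StringTie 2.1.6, HISAT2 2.2.1 and cutadapt 1.9, and also edgeR and DESeq2; a genome build is not given in the sources used here, and coordinates are those of the table.

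Genes with at least 1 FPKM in 3 of the 12 libraries (15974 of 24215) were tested on counts with edgeR 4.0.16 (R 4.3.3): TMM scaling, quasi-likelihood fit of 4 groups in all 12 libraries, Benjamini-Hochberg adjustment over all tested genes. Log2 fold changes come from counts, and levels are FPKM; SE is the log2 fold change over the root of the F statistic. The coefficient of variation between replicates was 0.0869, and counting intervals would cover counting error only. DESeq2 1.42.0, limma 3.58.1, other scalings and filters, a replicate block and leaving out libraries were alternatives. In simulated data of the yellow comparison (15974 genes), genes were changed by 1.5 or 3 on the log2 scale, 50 in each direction. In each direction 49 of 50 changed by 1.5 and 50 of 50 changed by 3 were called, with 3 false calls in all. The changed genes were drawn from those with at least 50 expected counts per library, and the spread was simulated from the fitted model. Detection of genes with fewer counts was not tested.

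Named genes were the 12 largest described rises and falls with groups apart and at least 5 FPKM, the 10 most abundant called genes, up to 5 called members per list, 18 fixed ripening genes and the 8 largest differences in each direction; further list members illustrate lists. Members and lists were chosen with earlier results of these data known. Ripening genes that the table gives only by ID were named by published tomato locus identifiers; SGR1 and LIN5 were not analysed here. Genes with no description carry only the table's term. A vascular marker list had no tested member (0.058 to 0.145 FPKM at maturity, against 0.046 to 0.201 FPKM at color break).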

Additional observations from a re-analysis of the deposited data

Results flagged for a closer look

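The difference of the stage changes, yellow minus red, was called by edgeR's quasi-likelihood test for each gene given here; values are log2 differences. The widest differences with the higher change in yellow were in genes whose red maturity libraries held few or no counts, so the fitted sizes depend on the prior count and are no bounds. Solyc06g075990 (10.65) had 116, 115 and 85 counts in yellow maturity and 588, 497 and 488 in yellow color break, against 0 counts in all 3 red maturity libraries and 936, 1101 and 953 in red color break. The lipid-transfer protein Solyc01g081600 (8.70) had 369 counts over yellow maturity and 1463 over yellow color break, against 0 over red maturity and 618 over red color break. For Solyc11g071810 (6.62), yellow maturity held 273 counts and yellow color break 278, against 15 over red maturity and 1458 over red color break.

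In 5 further genes red maturity replicate 1 held most or all of the counts of its group. The succinate dehydrogenase subunit Solyc04g055030 (5.86) had 7 counts there and 0 in the other 2 red maturity libraries. Solyc11g067250 (5.79) had 243, Solyc03g019820 (5.78) had 77 and Solyc01g100830 (5.45) had 32, each with 0 in the other 2. The Em-like gene Solyc06g048840 (5.71) had 1639 counts there, against 6 and 5 in the other 2. Without that library the difference was 13.41 for Solyc03g019820, 10.10 for Solyc04g055030 and 12.41 for Solyc06g048840.

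Differences with the lower change in yellow follow. LSU_rRNA_eukarya (-7.00) had 21 counts over yellow maturity and 23 over yellow color break, against 3968 over red maturity and 32 over red color break. Intron_gpII (-5.31) had 47 counts over yellow maturity and 24 over yellow color break, against 3175 over red maturity and 39 over red color break. The gene rpl33 (-3.44), described as a chloroplast ribosomal protein and placed by the table on chromosome 9 at 61797613 to 61797813, had 16, 2 and 1 counts in yellow maturity and 25 over yellow color break, against 301 over red maturity and 35 over red color break. Without yellow maturity replicate 1 its difference was -5.37 and its yellow log2 fold change -2.35, against -0.42 with all libraries. tRNA-Tyr differed by -1.79. LSU_rRNA_eukarya, Intron_gpII and tRNA-Tyr are entries for a ribosomal RNA, a group II intron and a transfer RNA. The libraries were oligo(dT)-selected, and whether carryover of RNA without a poly(A) tail differed between them was not tested. Solyc01g099180 (-2.52) rests on yellow color break replicate 3, with 3524 counts against 782 and 584 in the other 2 libraries, and the yellow log2 fold change without that library was -0.54. Solyc09g082790 differed by -2.32, Solyc04g078500 by -2.27 and Solyc11g005150 by -2.10.

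Among the fixed ripening genes the difference was called for PG2A (3.37), CHS1 (3.19), ACO1 (1.88), NCED1 (1.46) and MYB12 (1.31), in each with the higher change in yellow. CHS1 and MYB12 had passed the FPKM minimum only through red libraries.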

How the results depend on the processing

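With 1015 genes called between the yellow stages, limma on log2(FPKM + 1) gave 563, with 132 higher and 431 lower, and 1205 for the difference between the fruits, with 827 higher in yellow; the pseudocount shrinks low genes. With a pseudocount of 0.1 it called 939. DESeq2 called 935, and gave no adjusted p for 15 of the genes that the naming rule picked. Without the FPKM minimum 1500 genes were called, and the 6 yellow libraries alone gave 1039. Signs were compared only for genes that the naming rule picked, in runs that gave them an adjusted p. No called value of these changed sign, but Solyc09g084450 went from 7.43 to 0.00 without yellow maturity replicate 3. Leaving out a library, red maturity replicate 1 included (chosen after seeing the data for the yellow comparison), gave 999 to 1037 called genes, 233 to 247 higher and 760 to 795 lower, and for the difference 1885 to 2085, 1411 to 1595 higher and 463 to 495 lower. Whether replicate numbers pair the yellow libraries could not be decided from 3 libraries per stage. Deviations of same-numbered libraries correlated at 0.069, 0.082 and 0.038 across genes. Differently numbered ones correlated at -0.085 to 0.017, so the same-numbered values were the higher, though all were small. With a replicate block 1013 genes were called, 236 higher and 777 lower, and 1951 for the difference. Depth limits the genes near 1 FPKM.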

Other observations

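Called genes lay side by side in 18 runs of at least 3 neighbouring tested genes called in the same direction, 15 lower and 3 higher, with 56 genes in all and the longest run of 4; these runs were chosen after their values were seen. On chromosome 9, Solyc09g082330, Solyc09g082350 and Solyc09g082360 fell by 2.74, 3.43 and 3.92 on the log2 scale, at 68512481 to 68527457. On chromosome 11, Solyc11g028167, Solyc11g028170, Solyc11g028175 and Solyc11g028180 rose by 1.16, 1.23, 1.40 and 1.18 on the log2 scale. Neighbouring copies may share reads.

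Among genes that the table does not describe, also picked after their values were seen, Solyc05g006370 had 22.8, 20.6 and 20.4 FPKM at maturity, against 0.614, 0.678 and 0.912 FPKM at color break (log2 fold change 4.75 ± 0.16 (SE), adjusted p = 8.79e-11) and Solyc09g097960 had 9.22, 8.85 and 8.47 FPKM at maturity, against 0.101, 0.493 and 0.219 FPKM at color break (log2 fold change 5.02 ± 0.33 (SE), adjusted p = 4.95e-08). Solyc12g049617 had 0, 0.433 and 0.398 FPKM at maturity, against 9.74, 9.18 and 9.66 FPKM at color break (log2 fold change -5.09 ± 0.57 (SE), adjusted p = 9.23e-06).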
